A study of Sus scrofa with 33 samples.

Results

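Growth hormone and the receptors through which the somatotroph cell is controlled were followed across pituitary glands of 3 genetic groups of pigs. A probe was taken as a member when its gene name in the array files, or the symbol in its description, was GH1, GHRHR, GHSR, SSTR1, SSTR2, SSTR3 or SSTR5. These are 7 of the 11399 genes that could be named on the array, and they carried 12 probes. Of these, 10 passed the filter on dim probes, for which some group had to show a signal well above background in 75% or more of its arrays. A second probe of GHSR and a second probe of SSTR2 did not pass it. A further 2 probes, listed under other names, had the same sequence as a GHSR and an SSTR3 probe. They are described as GHSR probe 3 and SSTR3 probe 2 and are not counted among the members.

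The study exposed growing castrated male pigs to heat and measured transcripts in several tissues, here the pituitary. Large White (LW), Creole (CR) and their F1 cross (LWxCR) were sampled in thermoneutral (TN) conditions, given as 24 °C in the labels, or after days of heat stress (HS), given there as 30 °C and in the text of the series as 32 °C. The arrays numbered 5 LW TN, 6 LW HS, 5 CR TN, 6 CR HS, 6 F1 TN and 5 F1 HS, with 1 array per pig and no pooling. The title of the array LW HS 3 names Large White and its breed field names Creole, and it was taken as Large White. Pigs of a breed came from few litters, whose parents are not in the labels, so breed and family cannot be told apart. TN pigs were slaughtered before the temperature rose and HS pigs after, so heat cannot be told apart from age and day of slaughter. In bulk tissue, fewer somatotrophs and less RNA per somatotroph cannot be told apart either. The same holds for a member's RNA from somatotrophs and from other cells of the gland.

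Somatotrophs are the growth hormone cells of the anterior pituitary. Growth hormone-releasing hormone from the hypothalamus acts through GHRHR, a receptor that raises cyclic AMP, to drive both transcription of GH1 and release of the hormone. Ghrelin from the stomach adds to release through GHSR, while somatostatin holds release back through the receptors SSTR1, SSTR2, SSTR3 and SSTR5, which couple to inhibitory G proteins. Growth hormone in turn directs body growth, lipolysis and the production of IGF1 by the liver.

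The probe sequences are shown because several comparisons turn on which probe was read. The sequences come from the array's design files and are written 5′ to 3′ without a genome position. Each probe has 60 bases. For GHRHR probe 1 and the SSTR5 probes the last 30 bases are shown, and capitals mark the stop codon that closes the coding sequence in GHSR probe 1.
GH1 probe 1: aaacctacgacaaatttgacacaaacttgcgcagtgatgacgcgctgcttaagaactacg
GHRHR probe 1: ctctgaagtcgttggttcctctgtctcttt
GHRHR probe 2: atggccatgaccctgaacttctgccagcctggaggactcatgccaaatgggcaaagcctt
GHSR probe 1: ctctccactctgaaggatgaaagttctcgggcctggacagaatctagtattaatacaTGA
SSTR1 probe 1: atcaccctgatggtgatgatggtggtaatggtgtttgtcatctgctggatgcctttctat
SSTR2 probe 1: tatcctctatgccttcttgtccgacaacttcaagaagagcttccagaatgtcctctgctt
SSTR3 probe 1: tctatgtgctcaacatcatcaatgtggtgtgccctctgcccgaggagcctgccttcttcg
SSTR5 probe 1: actccctgaataaacgagagaataaatgtc
SSTR5 probe 2: ctgaataaacgagagaataaatgtctgact

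The 2 GHRHR probes read different stretches of the transcript, so they are separate readings of it. GHSR probe 3 repeats the 60 bases of GHSR probe 1, and the SSTR1 probes and the SSTR3 probes are likewise pairs of identical sequence. The SSTR5 probes share 55 bases and are nearly 1 reading.

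Between 73.5% and 82.2% of the spots of an array were well above background, and the median intensity of an array was 131 to 165 against a local background of 20 to 47.5. All levels below are log2 of quantile-normalized intensity. Levels are compared between arrays for the same probe, since probes differ in brightness for the same amount of RNA. The tissue label held for the main hormones, with PRL and POMC near the top of the scale as well as GH1. Of the 3 markers listed for the posterior lobe, AVP and OXT were also bright, although the methods describe the anterior lobe. As means of the 3 breeds AVP was at 16.96 to 17.01 and OXT at 15.6 to 15.7. These values do not cover the third marker, GFAP.

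**Figure D1:**
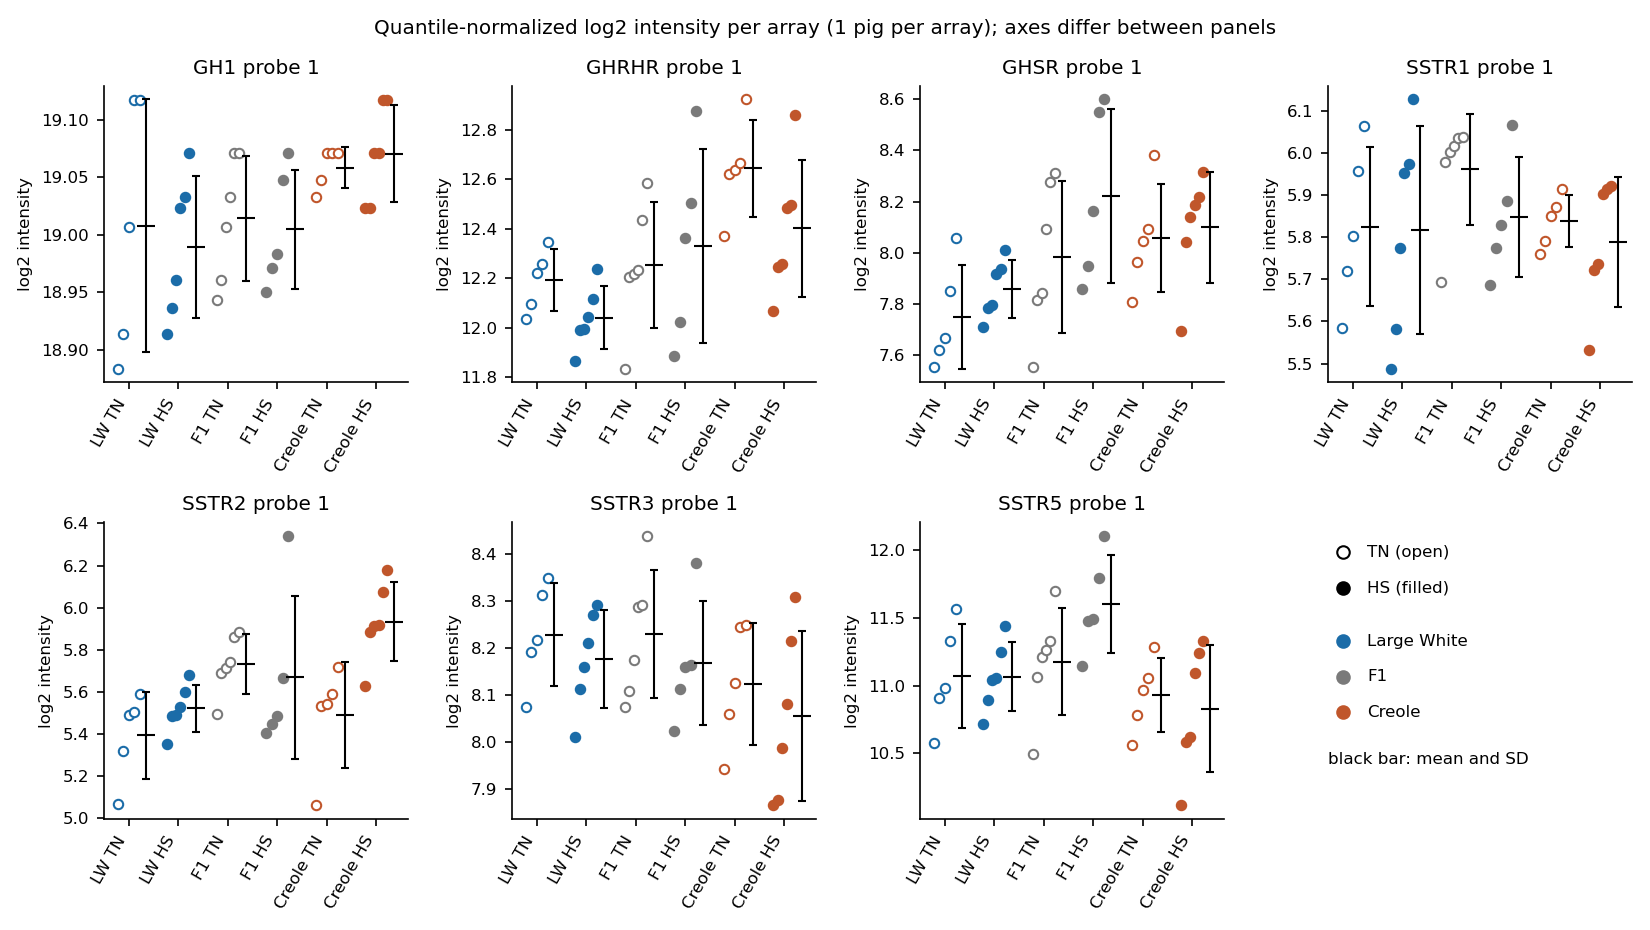
Level of the lead probe of each member, as log2 of normalized intensity, in each of the 6 breed-by-temperature groups, with 1 point per array and the mean and SD of each group. GHRHR is lowest in the LW groups, SSTR5 is highest in F1 HS, and GH1 spans less than the other members.

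GH1, which encodes the hormone itself, was among the brightest probes of every array. Its 33 raw readings lay between 471602 and 594826 and ranked between the 5th and 22nd brightest of the kept probes of an array. No spot was saturated. GH1 took only 14 different ranks over the 33 arrays. Quantile normalization gives the same value to the same rank, so GH1 fell on few values, 0.25 to 0.48 log2 units below the brightest. The part of normalization in its narrow span was not tested.

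In LW pigs GH1 had a lowest value of 18.88, a median of 19.01 and a highest value of 19.12. In F1 pigs these values were 18.94, 19.01 and 19.07. In CR pigs they were 19.02, 19.07 and 19.12. All 11 CR arrays lay above the LW median, and the breeds overlapped. Mean GH1 was 0.07 lower in LW than in CR (95% interval -0.14 to 0.0063, limma adjusted p = 0.328), and 0.06 lower in F1 than in CR (adjusted p = 0.397).

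GHRHR, the receptor for growth hormone-releasing hormone, differed most clearly between the parental breeds. GHRHR probe 1 had a lowest value of 11.86, a median of 12.10 and a highest value of 12.35 in LW pigs. In F1 pigs it was 11.83, 12.24 and 12.88. In CR pigs it was 12.07, 12.50 and 12.92. Of the 11 CR arrays, 8 lay above every LW array. F1 spanned the LW range, and the CR range except for its highest value.

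The CR level of GHRHR was 1.32-fold the LW level by probe 1 (log2 difference of LW from CR -0.40, SE 0.10, 95% interval -0.61 to -0.19, limma adjusted p = 0.0121). All 11 LW arrays lay below the CR mean of their own temperature. Probe 2, on another stretch, gave 1.35-fold (difference -0.43, SE 0.098, adjusted p = 0.00484), also in 11 of 11 arrays. By probe 2 the LW range was 9.79 to 10.19 and the CR range 10.12 to 10.92, with 10 of the 11 CR arrays above all LW arrays. The 2 probes moved together between pigs of the same group, with r = 0.91 over 33 arrays.

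These were the 2 of 10 member probes that passed the threshold between LW and CR, both lower in LW, while 6.53% of all 47083 probes passed it and 2.99% did so as lower in LW. At an unadjusted p below 0.05 there were 4 member probes, against 18.4% of all probes. Leaving out any 1 of the 33 arrays kept both GHRHR calls, with differences from -0.44 to -0.36 for probe 1 and from -0.46 to -0.38 for probe 2. The glass slide on which an array lay showed no effect on GHRHR probe 1 that passed the threshold (adjusted p = 0.827). Within the 5 slides, LW was below CR by probe 1 each time, with differences of -0.03, -0.31, -0.61, -0.30 and -0.37, the first from a slide with 1 array per breed.

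F1 pigs lay between their parental breeds in GHRHR. The F1 mean was 0.17 above LW (adjusted p = 0.507) and 0.23 below CR (adjusted p = 0.172) by probe 1, and neither difference passed the threshold. The 3 breed comparisons share arrays and are not independent. Against the mean of the parental breeds the F1 value was -0.03 (95% interval -0.21 to 0.15, adjusted p = 0.910). Without F1 HS 1, the F1 pig with the highest GHRHR value at 12.88, the F1 to CR difference became -0.31 and passed (adjusted p = 0.0488), and the F1 to LW difference became 0.097.

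**Figure D2:**
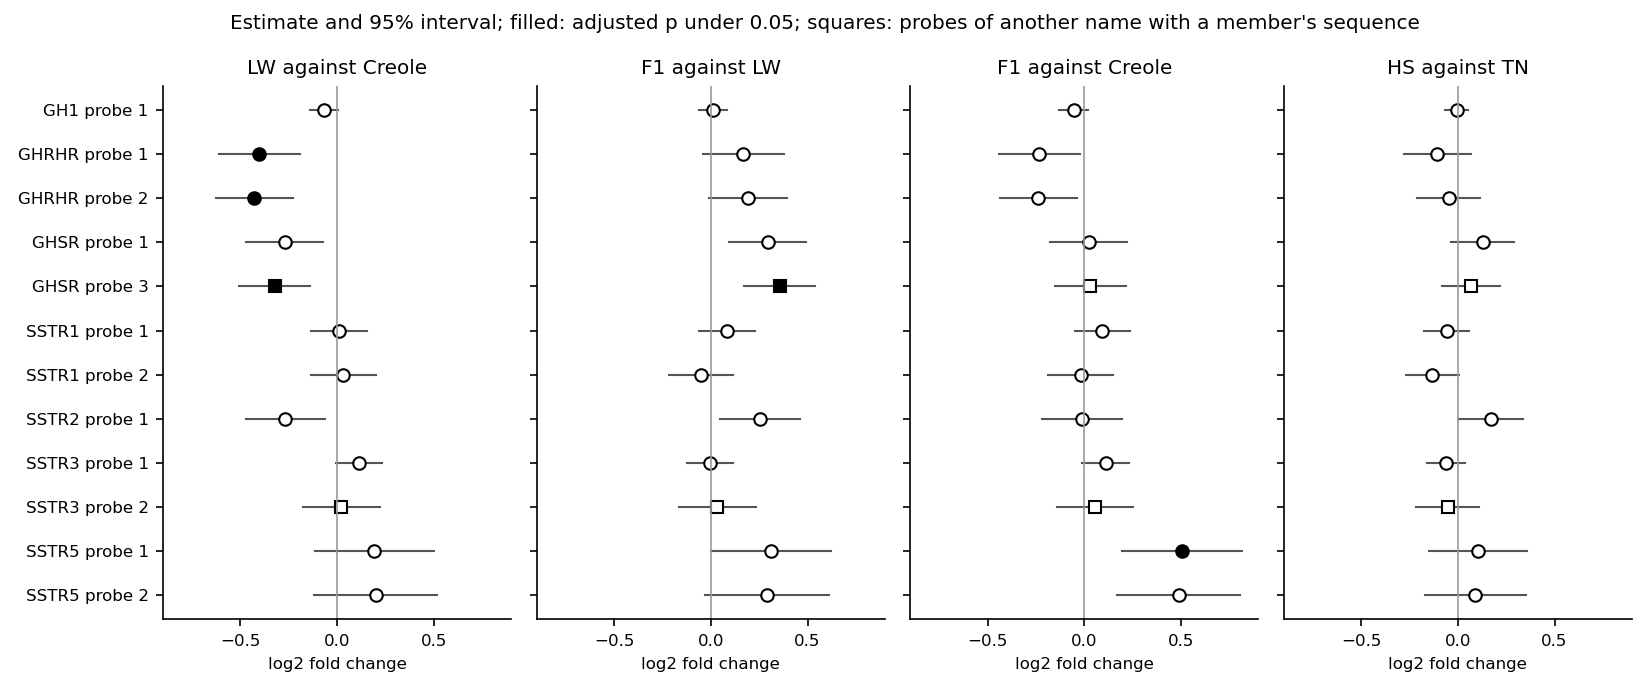
Log2 difference with 95% interval for each member probe in the comparisons LW against CR, F1 against LW, F1 against CR, and HS against TN, from limma on 33 arrays, with filled symbols where the adjusted p was under 0.05 and squares for the probes listed under other names. Both GHRHR probes lie below 0 in LW against CR, and SSTR5 lies above 0 in F1 against CR.

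GHSR, the ghrelin receptor, was also lower in LW pigs, with a call that depended on the probe. GHSR probe 1 had a lowest value of 7.56, a median of 7.79 and a highest value of 8.06 in LW. In F1 it was 7.55, 8.09 and 8.60. In CR it was 7.69, 8.09 and 8.38. Of the CR arrays, 6 of 11 lay above every LW array, as did 6 of 11 F1 arrays.

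The difference of LW from CR was -0.27 by GHSR probe 1 (SE 0.098, 95% interval -0.47 to -0.07, limma adjusted p = 0.0955). All 11 LW arrays lay below the CR mean of their temperature. Probe 3, which carries the same bases, gave -0.32 (SE 0.09, adjusted p = 0.0235), again in 11 of 11 arrays, and passed with any 1 array left out. The call of probe 3 was lost when LW HS 3 was taken as Creole (adjusted p = 0.0632). Without CR HS 5, the CR pig with the lowest GHSR at 7.69, probe 1 passed too, at -0.32 (adjusted p = 0.0379). Within slides the probe 1 differences were 0.01, -0.24, -0.30, -0.46 and -0.26.

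F1 exceeded LW in GHSR by 0.29 with probe 1 (SE 0.098, limma adjusted p = 0.127) and by 0.36 with probe 3 (SE 0.09, adjusted p = 0.0391). The arrays above the LW mean of their temperature were 9 of 11 with probe 1 and 10 of 11 with probe 3. Removing 1 array ended the probe 3 call in 13 of 33 cases, with adjusted p between 0.0527 without LW HS 3 and 0.0879 without F1 HS 2. The other arrays whose removal ended it were LW TN 2, LW TN 3, LW TN 4, LW TN 5, LW HS 2, LW HS 5, LW HS 6, F1 TN 2, F1 TN 4, F1 TN 5 and F1 HS 5. No member probe passed in F1 against LW, 3 of the 10 did at an unadjusted p below 0.05, and 1.43% of all probes passed (13.7% unadjusted). GHSR of F1 and CR differed by 0.02 (95% interval -0.18 to 0.22).

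GHSR probe 2, which was well above background on 16 of 33 arrays, spanned 4.97 to 5.83. Its deviations did not follow those of probe 1, with r = -0.00 over 33 arrays, while probes 1 and 3 gave r = 0.91.

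**Figure D3:**
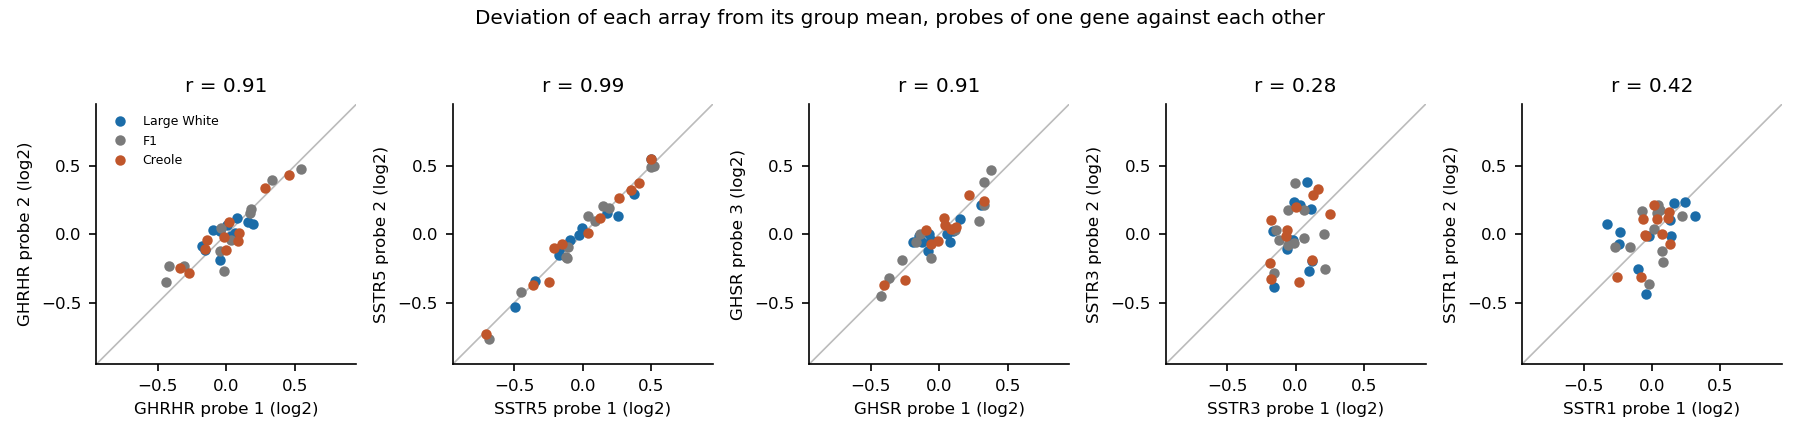
Pairs of probes of the same member, with the deviation of each of the 33 arrays from its group mean by one probe on the x axis and by the other on the y axis, in log2 units. The GHRHR, GHSR and SSTR5 pairs lie along the diagonal, with r of 0.91, 0.91 and 0.99, whereas the dimmer SSTR1 pair and the SSTR3 pair scatter although their sequences are identical.

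The somatostatin receptors SSTR1 and SSTR3 showed no difference between breeds that passed the threshold. SSTR1 probe 1 was dim, with medians of 5.80 in LW, 5.98 in F1 and 5.85 in CR and a range over all arrays of 5.49 to 6.13. SSTR3 probe 1 had medians of 8.21 in LW, 8.16 in F1 and 8.08 in CR. The LW to CR difference was 0.0094 for SSTR1 (95% interval -0.13 to 0.15) and 0.11 for SSTR3 (interval -0.0062 to 0.23, limma adjusted p = 0.305). Replicate probes of the same bases gave r = 0.42 for SSTR1 and 0.28 for SSTR3 within groups. The slide effect passed for SSTR1 probe 2 (adjusted p = 0.0181) and for SSTR3 probe 2 (adjusted p = 7.51e-06), as it did for 13% of all probes.

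SSTR2 was close to background. Probe 1 was well above it on 29 of the 33 arrays, among them 3 of 5 LW TN and 4 of 5 CR TN arrays, so its lowest values are bounds. In LW its lowest, median and highest values were 5.07, 5.49 and 5.68. In F1 they were 5.40, 5.69 and 6.34, and in CR 5.06, 5.72 and 6.18. LW was 0.27 below CR (95% interval -0.47 to -0.06, limma adjusted p = 0.117), lower in 9 of 11 arrays. With the processed signal, from which background was subtracted, the difference was -0.77, and with normexp background correction it was -0.16, neither called. Without CR TN 1, the lowest CR array at 5.06, this difference became -0.33 and passed (adjusted p = 0.0302).

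SSTR5 was the member that stood highest in F1 pigs. SSTR5 probe 1 had a lowest value of 10.49, a median of 11.32 and a highest value of 12.10 in F1. In LW it was 10.58, 11.04 and 11.57. In CR it was 10.12, 10.97 and 11.33. Of the 11 F1 arrays, 5 lay above every CR array, and F1 TN 3 lay below all but 1 of them. The group means were further apart in HS, at 11.60 in F1 and 10.83 in CR, than in TN, at 11.18 and 10.93, while the test of the interaction over the 3 breeds called no member (SSTR5 probe 1 adjusted p = 0.925).

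The F1 level of SSTR5 was 1.42-fold the CR level by probe 1 (log2 difference 0.50, SE 0.152, 95% interval 0.19 to 0.81, limma adjusted p = 0.0396). The direction held in 10 of 11 F1 arrays. Probe 2, which shares most of its bases, gave 0.49 (SE 0.157, adjusted p = 0.0546) and did not pass. Probe 1 was the 1 of 10 member probes called in F1 against CR, where 6.66% of all probes passed and 3.35% did so as higher in F1. The unadjusted p was below 0.05 for 4 member probes and for 21.5% of all probes. Within the 5 slides F1 lay above CR by 0.70, 0.75, 0.40, 0.09 and 0.56 with probe 1, and by 0.71, 0.67, 0.45, -0.015 and 0.59 with probe 2.

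The SSTR5 call stood near the threshold. It was lost with the processed signal (adjusted p = 0.0510), with array weights (0.0539) and with LW HS 3 as Creole (0.0602). Removing a single array also ended it in 10 of 33 cases, and the difference then ran from 0.42 to 0.58 over the 33. The adjusted p rose to 0.0779 without F1 HS 1, 0.0956 without F1 HS 2, 0.0530 without F1 TN 2, 0.0731 without F1 TN 4 and 0.0555 without F1 TN 5. Among the CR arrays it rose to 0.0528 without CR TN 4, 0.0674 without CR TN 5, 0.0704 without CR HS 2, 0.0680 without CR HS 3 and 0.0732 without CR HS 5. Conversely, probe 2 passed without LW TN 1, F1 TN 1, F1 TN 3, CR TN 2 or CR HS 6, with adjusted p of 0.0126 to 0.0474. With the slide as a fixed block both probes passed, at 0.51 and 0.49 (limma adjusted p = 0.0249 and 0.0390).

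SSTR5 in F1 also exceeded the mean of the parental breeds, by 0.41 with probe 1 (95% interval 0.14 to 0.68) and 0.39 with probe 2, in 10 and 9 of 11 arrays. These differences did not pass the threshold (limma adjusted p = 0.0850 and 0.117). Without F1 TN 3 the probe 1 difference was 0.49 and passed (adjusted p = 0.0258). No member probe passed against the mean of the parents, 2 did at an unadjusted p below 0.05, and 2.75% of all probes passed (16.7% unadjusted). F1 was 0.31 above LW in SSTR5 (95% interval 0.0016 to 0.62, adjusted p = 0.362).

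Heat changed no member past the threshold. None of the 10 member probes passed in HS against TN over the 3 breeds, where 0.0191% of all probes did (9 probes). That number was 91 with the slide as a fixed block, and no member was among them. At an unadjusted p below 0.05 there was 1 member probe, against 8.68% of all probes. GH1 had a median of 19.04 in TN and 19.02 in HS, and its difference was -0.0054 (95% interval -0.07 to 0.05, limma adjusted p = 0.978). GHRHR probe 1 had medians of 12.30 and 12.24 and a difference of -0.11 (interval -0.28 to 0.07, adjusted p = 0.757). GHSR probe 1 had medians of 7.91 and 8.01 and a difference of 0.13 (interval -0.03 to 0.29, adjusted p = 0.682), higher in 12 of 17 HS arrays. The 2 temperatures overlapped in these members.

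Among the inhibitory receptors, SSTR2 probe 1 had the smallest p in HS against TN. Its median was 5.57 in TN and 5.63 in HS, and its difference was 0.17 (95% interval 0.0009 to 0.34, unadjusted p = 0.0488, limma adjusted p = 0.575). It was 0.43 with the processed signal and 0.074 with normexp background correction, with unadjusted p of 0.0709 and 0.133. SSTR5 probe 1 had medians of 11.06 and 11.15 and a difference of 0.11 (interval -0.15 to 0.36), which was 0.054 without F1 TN 3. The differences of SSTR1 probe 1 and SSTR3 probe 1 were -0.06 each. The marker HBB, a haemoglobin gene, was 1.15 lower in HS (adjusted p = 0.0307), the only 1 of the 3 kept blood markers to pass, and its part in the members' values was not tested.

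**Figure D4:**
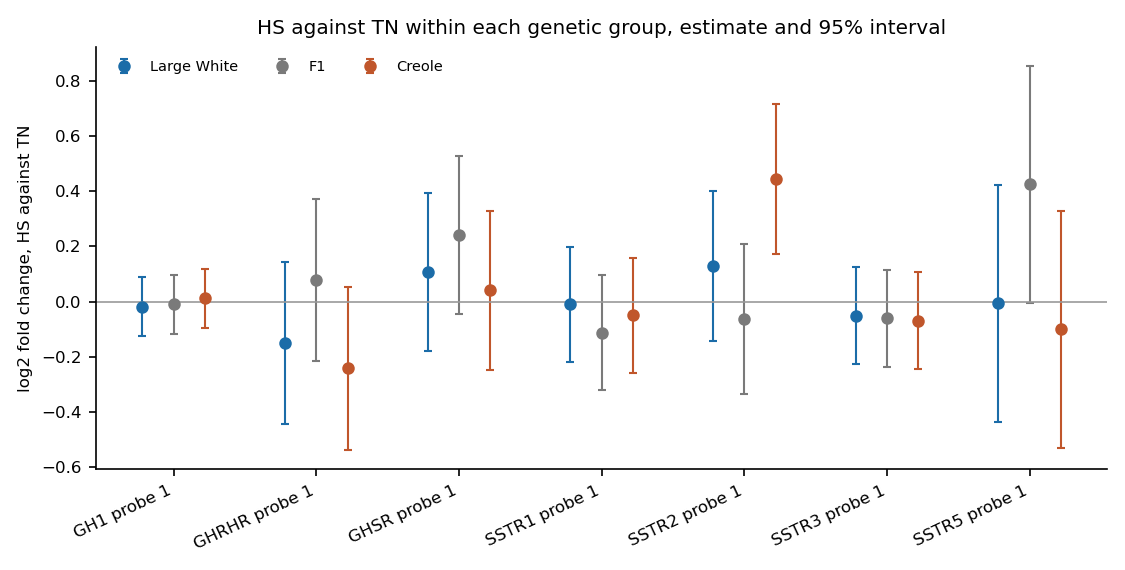
Log2 difference of HS from TN with 95% interval for the lead probe of each member, within LW, CR and F1 pigs. All intervals include 0 except that of SSTR2 in CR pigs, at 0.44 with an interval of 0.17 to 0.72.

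The members were also compared within each breed. No probe on the array passed within LW, CR or F1 (percent called 0), although 6 did within LW when arrays were weighted, none of them a member, so the following are values with their intervals. At an unadjusted p below 0.05 there were 0 member probes in LW, 1 in CR and 1 in F1, against 6.76%, 5.88% and 5.71% of all probes.

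SSTR2 probe 1 in CR TN pigs read 5.06, 5.53, 5.54, 5.59 and 5.72. In CR HS pigs its lowest, median and highest values were 5.63, 5.91 and 6.18. Only CR HS 3 fell within the TN range. The difference was 0.44 (SE 0.13, 95% interval 0.17 to 0.72, unadjusted p = 0.00226, limma adjusted p = 0.830), higher than the TN mean in 6 of 6 arrays. It was 0.24 with normexp background correction and 1.06 with the processed signal. Without CR TN 1 it was 0.34, and no array left out brought the adjusted p below 0.595. Within the 4 slides that held both temperatures of CR it was 0.85, -0.0030, 0.35 and 0.41. SSTR2 probe 2, well above background on 10 of 33 arrays, differed by 0.07.

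SSTR5 in F1 HS pigs read 11.15, 11.48, 11.49, 11.79 and 12.10 by probe 1. In F1 TN pigs its lowest, median and highest values were 10.49, 11.24 and 11.70. The difference was 0.42 by probe 1 (unadjusted p = 0.0523) and 0.46 by probe 2 (unadjusted p = 0.0395, limma adjusted p = 0.861). With the slide as a fixed block these differences were 0.29 and 0.32 (limma unadjusted p = 0.191 and 0.161). Without F1 TN 3, probe 1 gave 0.29. For the other members the differences within a breed were smaller, and in LW they lay between -0.15 and 0.13 over the 10 probes. GHRHR in CR was 0.24 lower in HS by probe 1, and the ranges of 12.07 to 12.86 and 12.37 to 12.92 overlapped.

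The test of whether the heat response differed between breeds called 0 of 10 member probes and 0 of all probes. At an unadjusted p below 0.05 there was 1 member probe, against 4.29% of all probes. It was SSTR2 probe 1, with an unadjusted p of 0.0367 and a limma adjusted p of 0.925.

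Ordered by group mean, GHRHR probe 1 ran from CR TN at 12.64 through CR HS at 12.40, F1 HS at 12.33, F1 TN at 12.25 and LW TN at 12.19 to LW HS at 12.04. GHSR probe 1 ran from F1 HS at 8.22 through CR HS at 8.10, CR TN at 8.06, F1 TN at 7.98 and LW HS at 7.86 to LW TN at 7.75. SSTR5 probe 1 ran from F1 HS at 11.60 through F1 TN at 11.18, LW TN at 11.07, LW HS at 11.06 and CR TN at 10.93 to CR HS at 10.83. Neighbours in these orders mostly lay within their spread.

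SSTR2 probe 1 ran from CR HS at 5.93 through F1 TN at 5.73, F1 HS at 5.67, LW HS at 5.52 and CR TN at 5.49 to LW TN at 5.39. The group means of GH1 spanned only 18.99 in LW HS to 19.07 in CR HS, those of SSTR1 5.79 in CR HS to 5.96 in F1 TN, and those of SSTR3 8.06 in CR HS to 8.23 in F1 TN. Over the 7 lead probes, 3 of the 35 gaps between neighbouring group means exceeded both SDs. These were LW TN over LW HS in GHRHR, CR HS over F1 TN in SSTR2 and F1 HS over F1 TN in SSTR5. All other neighbours did not differ beyond their spread.

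Whether the members varied together between pigs of the same group was examined on deviations from the 6 group means. None of the 21 pairs passed after adjustment, and Pearson's r ran from -0.34 to 0.39 over 33 arrays (smallest adjusted permutation p = 0.325). GHRHR and SSTR3 gave r = 0.39 and Spearman's rho of 0.29 (permutation p = 0.0554 and 0.139, adjusted p = 0.325 and 0.416), which fell to 0.16 without the 2 arrays farthest from the median. GH1 and GHRHR, hormone and stimulating receptor, gave r = 0.36 and rho of 0.41 (permutation p = 0.0243 and 0.0265, adjusted p = 0.325 and 0.291). That pair gave r = 0.43 without the 2 farthest arrays and 0.28 with slide means also removed. Within the 4 slides with at least 7 arrays it was 0.21, -0.05, 0.28 and 0.66.

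**Figure D5:**
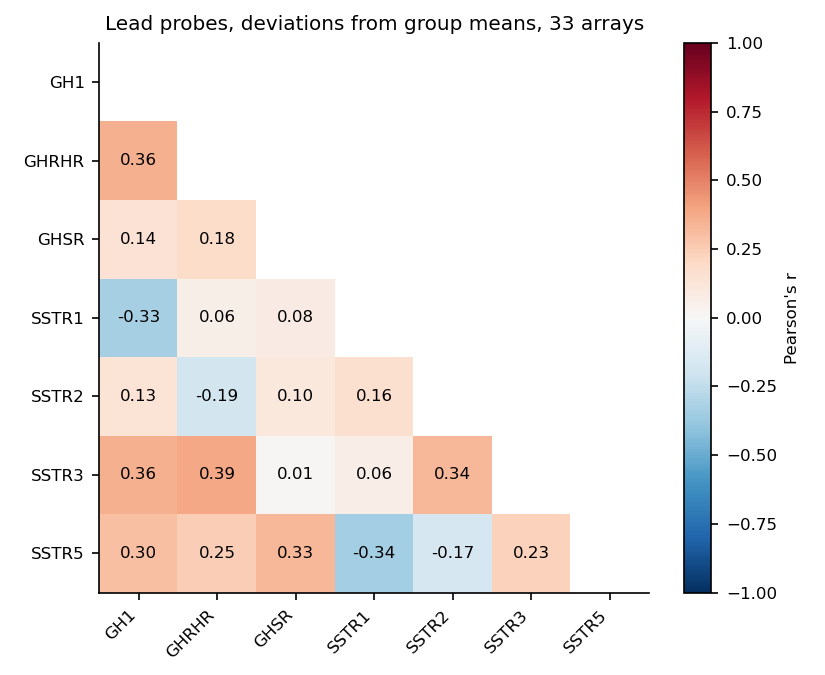
Pearson's r between the lead probes of the 7 members over 33 arrays, on deviations from the breed-by-temperature group means, with the value in each cell. The values run from -0.34 to 0.39 and none passed after adjustment over the 21 pairs.

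The genes nearest to each member by the same measure were the highest r among 10241 genes and are given as a description. They were WIPF2 for GH1 (r = 0.76), KRT7 for GHRHR (0.74), CCDC81 for GHSR (0.68), GRB2 for SSTR1 (0.65), VRK1 for SSTR2 (0.73), TMEM213 for SSTR3 (0.68) and FBL for SSTR5 (0.77). With slide means removed, 4 of the 21 genes that filled the 3 nearest places stayed there, KRT7 for GHRHR, CCDC81 for GHSR, MYLPF for SSTR2 and MRPS11 for SSTR5.

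The rest of the somatotroph pathway was read through 80 genes in lists of ligands, cyclic AMP signalling, ghrelin and somatostatin signalling, lineage factors, and feedback. Of these, 60 were on the array and 53 passed the filter. The releasing hormone GHRH, somatostatin SST and LEAP2, a peptide that opposes ghrelin, were on the array and did not pass it. Each of the 53 was read by its brightest kept probe, whereas the shares over all probes include dimmer ones. Between LW and CR 8 of the 53 passed, 4 in each direction (2.99% of all probes were called lower and 3.53% higher in LW). Without adjustment 16 of the 53 had p below 0.05, against 18.4% of all probes. The median difference over the 53 was 0.03, and over all probes -0.0014.

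Lower in LW, as GHRHR was, were the lineage factors POU1F1, which drives GH1 and GHRHR transcription, by 0.34 (limma adjusted p = 0.0367), and NEUROD1, by 0.58 (adjusted p = 0.000241). So were GHR, the growth hormone receptor, by 0.30 (adjusted p = 0.0121) and NR3C1, the glucocorticoid receptor, by 0.21 (adjusted p = 0.0279). The mean of POU1F1 was 11.26 ± 0.27 in LW, 11.38 ± 0.28 in F1 and 11.59 ± 0.20 in CR (SD, n = 11 each). NEUROD1 ran the same way, at 7.43 ± 0.20, 7.81 ± 0.24 and 8.01 ± 0.29. Other probes of these genes were not all called, with 1 of 3 for POU1F1, 1 of 1 for NEUROD1, 4 of 5 for GHR and 1 of 3 for NR3C1. The size for GHR depended on the probe, with differences of -1.24 to -0.24 over its other 5 probes.

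Higher in LW were ghrelin, GHRL, by 0.57 (limma adjusted p = 0.0187) in 10 of 11 arrays, and ADCY5, an adenylyl cyclase, by 0.35 (adjusted p = 0.0204). PRKACB, a catalytic subunit of protein kinase A, was 0.42 higher (adjusted p = 0.0305) and ARRB2, an arrestin that uncouples receptors, 0.30 higher (adjusted p = 0.00154). Mean GHRL was 7.96 ± 0.48 in LW, 7.71 ± 0.32 in F1 and 7.40 ± 0.37 in CR, the reverse order of GHRHR. The other probe of PRKACB, at 0.065, and the other 2 of ARRB2, at -0.07 and 0.24, were not called. GHRL and ADCY5 had no other kept probe.

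In F1 against CR 5 of the 53 pathway genes passed, all higher in F1, where 3.35% of all probes were called higher. Without adjustment 18 of the 53 had p below 0.05, against 21.5% of all probes. Of the 12 kept genes of cyclic AMP signalling 4 passed, ADCY5 at 0.42 (limma adjusted p = 0.00726), PRKACB at 0.59 (0.00334), PRKAR2A at 0.41 (0.0277) and PRKAR1A at 0.19 (0.0429), the latter pair being regulatory subunits of protein kinase A. These calls rest on the brightest probe of each gene. The other probes were not called, at 0.0084 for PRKACB, -0.05 for PRKAR2A and -0.10 to 0.22 over 4 probes of PRKAR1A, and ADCY5 had no other kept probe. The fifth was PITX1, a pituitary lineage factor, at 0.24 (0.0443). PITX1 was also the only pathway gene called in F1 against LW, at 0.29 (adjusted p = 0.0391) in 10 of 11 arrays, where 0.531% of all probes were called higher. With PRKACB and THRB, a thyroid hormone receptor, it was 1 of the 3 called against the mean of the parents. All 3 were higher in F1, in a comparison where 1.04% of all probes were called higher. There too the other PRKACB probe, at -0.024, and the other 3 THRB probes, at -0.04 to 0.22, were not called.

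In HS against TN 0 of the 53 passed, against 0.0191% of all probes. Without adjustment 11 of the 53 had p below 0.05, against 8.68% of all probes. LHX3, a pituitary lineage factor, had a difference of 0.25 with 17 of 17 HS arrays above the TN mean of their breed (limma adjusted p = 0.199). SOCS3, a feedback inhibitor of growth hormone signalling, had a difference of -0.43 (adjusted p = 0.252). Neither passed.

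Markers of other pituitary cells also differed between breeds, in a comparison where 6.53% of all probes were called, 2.99% lower and 3.53% higher in LW. In LW against CR the somatotroph markers GHRHR and POU1F1 were lower in LW, 2 of 4, while GH1 and DLK1 were not called. Of the thyrotroph markers TRHR was lower, by 0.48 (limma adjusted p = 0.0035), 1 of 2, while TSHB had a difference of -1.47 and was not called (adjusted p = 0.155). Of the gonadotroph markers GNRHR was 0.59 and NR5A1 0.56 higher in LW (adjusted p = 0.0112 and 0.0142), 2 of 4. Of the endothelial markers KDR was 0.94 and CDH5 0.41 higher (adjusted p = 3.9e-05 and 0.0457), 2 of 4.

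Summed intensities of these lists overlapped between LW and CR. They ran from 490842 to 577848 in LW and 542115 to 579045 in CR for the somatotroph list, which GH1 dominates. The thyrotroph list spanned 461 to 48853 in LW and 1689 to 83689 in CR, with medians of 24867 and 60066. The gonadotroph list spanned 193151 to 458053 and 173741 to 338421, and the endothelial list 4535 to 12413 and 3979 to 10051. In F1 against CR, where SSTR5 differed and 6.66% of all probes were called, the gonadotroph markers GNRHR and NR5A1 were 0.64 and 0.46 higher in F1, 2 of 4. KDR was 0.59 higher, 1 of 4 endothelial markers, whose median difference was -0.042. S100B was 0.39 lower, 1 of 3 of the folliculostellate and stem list. The part of these markers in the GHRHR, GHSR and SSTR5 differences was not tested.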

How the data were processed

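RNA of 33 pituitaries was labelled with Cy3 and hybridised to 1-colour Agilent porcine arrays. The median pixel intensity of each spot, per the file headers, came from Feature Extraction (version 10.10.1.1 in the submitters' processing notes). A value matrix deposited by the authors holds log2 intensities of 45667 probes, quantile-normalized without background correction. Here the scanner intensity was processed the same way. Outlier spots were left out, 60306 spots were quantile-normalized and log2 was taken, which gave 60305 probes, and the median absolute difference to the deposited log2 values was 0.0038. A probe was kept where any of the 6 groups had it well above background in 75% or more of its arrays (47083 probes). Their genes were named from the array's gene names, accessions and synonyms.

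Differences were tested two-sided with limma 3.58.1 (R 4.3.3, data.table, version 1.17.8) on all 33 arrays. An additive model of breed and temperature, and 1 mean per group for effects within breeds and the interaction, were fitted, with Benjamini-Hochberg adjustment over 47083 probes (threshold 0.05, 3.95 prior degrees of freedom). An array counts towards a direction against the other group's mean within its breed or temperature. Correlations were tested with 100000 permutations. Plots used Python 3.11.15 and matplotlib 3.10.9. The fit was tested on simulated data.

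The members, gene lists and tests were chosen with earlier results of these data known. The lead probe of a member is its brightest kept probe, the nearest genes are the 3 with the highest r, and pathway genes are named where they passed the threshold, with LHX3 and SOCS3 chosen after their values were seen. The pen, slaughter day and parents, terms of the study's own model, are not in the labels and were not fitted. Alternatives were the authors' log2 matrix, normexp background correction with an offset of 50, the processed signal scaled to the 75th percentile, no filter, the slide as a fixed or random block, array weights, LW HS 3 as Creole or left out, no breed term, and each array left out. Averaging probes of the same sequence was added after seeing the data.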

Additional observations from a re-analysis of the deposited data

Results flagged for a closer look

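In 4 of the 60 combinations of probe and group tested, 1 array stood apart from its group by Dixon's criterion, which chance meets in about 1 of 20. SSTR1 probe 1 read 5.69 in F1 TN 3 and 5.98 to 6.04 in the other F1 TN arrays. SSTR1 probe 2, of the same sequence, read 5.27 in LW HS 1 against 5.69 to 5.93 in the others. SSTR2 probe 1 read 6.34 in F1 HS 5 against 5.40 to 5.66, and 5.06 in CR TN 1 against 5.53 to 5.72. All 4 lie on the dimmest kept member probes.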

How the results depend on the processing

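No paired analysis was possible, because each pig was sampled once and the labels do not give the litters. The tests therefore treated littermates as independent pigs. GHRHR was called lower in LW than in CR by both probes under all 10 alternatives, with differences of -0.43 to -0.37 for probe 1 (limma adjusted p 0.00349 to 0.0455) and -0.45 to -0.40 for probe 2. The count of member probes called in LW against CR was 4 with array weights, where GHSR probe 1 and SSTR2 probe 1 joined. In F1 against CR it was 0 with the processed signal, with array weights and with LW HS 3 taken as Creole, where SSTR5 probe 1 had adjusted p of 0.0510, 0.0539 and 0.0602, and 2 with the slide as a fixed or as a random block. With each array left out in turn these counts ran from 2 to 3 in LW against CR, from 0 to 2 in F1 against CR and against the mean of the parents, and were 0 in the other comparisons. With probes of the same sequence averaged, GHSR probe 1 was called in LW against CR at -0.30 (adjusted p = 0.0441). The GHSR probe 3 call in F1 against LW was lost under 3 of its 9 alternatives, with the processed signal (adjusted p = 0.0550), without LW HS 3 (0.0527) and with LW HS 3 as Creole (0.0602). The HS to TN difference of SSTR2 probe 1 within CR ran from 0.24 to 1.06, the latter with the processed signal, and was called under no alternative. The cause of these changes was not tested.

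Over all probes, the count called in HS against TN was 9, and it ran from 4 without a breed term to 91 with the slide as a fixed block (58 as a random block, 31 with LW HS 3 left out, 23 with the processed signal), with no member among them. The directions that turned were of small differences, none of them called. GH1 became 0.037 in HS against TN and 0.043 in F1 against CR with the processed signal, and GHSR probe 1 became -0.028 in F1 against CR with array weights. SSTR2 probe 1 in F1 against CR became 0.013 with normexp, 0.084 with the processed signal, 0.0054 with the slide as a fixed block and 0.0029 with LW HS 3 as Creole. SSTR3 probe 1 in F1 against LW became 0.0067 with the processed signal and 0.015 with identical probes averaged. SSTR1 probe 2 in F1 against CR went from -0.019 to 0.0070 with normexp and to 0.010 with the slide as a fixed block. With each array left out in turn, GH1 ran from -0.014 to 0.0035 in HS against TN and from -0.0015 to 0.025 in F1 against LW. In the same way SSTR1 probe 1 ran from -0.025 to 0.041 in LW against CR and SSTR3 probe 1 from -0.028 to 0.012 in F1 against LW. In F1 against CR, GHSR probe 1 ran from -0.026 to 0.069 and SSTR2 probe 1 from -0.077 to 0.031. Against the mean of the parents GH1 went from -0.022 to 0.078 with the processed signal. With the slide as a fixed block, HS against TN went from -0.06 to 0.036 for SSTR2 probe 1 within F1, and within LW from -0.0065 to 0.06 for SSTR5 probe 1 and from -0.07 to 0.014 for SSTR5 probe 2. Within CR, SSTR5 probe 1 went from -0.10 to 0.0074 with array weights. SSTR1 and SSTR2 were the dimmest of the kept members, and the part of low signal in these changes was not tested.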
